A study of Mus musculus with 12 samples.

Results

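The RNA of mouse embryonic stem cells with a stable knockdown of Tet2 (Tet2kd, 4 libraries) was compared with that of the parental cells (4 libraries) across all genes with a mean normalized read count of at least 10 over both groups. These were 14909 genes of the 36521 rows of the gene table, of which 22949 held reads. Both groups were of the line V6.5, a male embryonic stem cell line, and were grown in serum with LIF. According to the labels the Tet2kd cells had been electroporated with the vector pSUPER-puro carrying a short hairpin RNA against Tet2, selected with puromycin on SNL76/7-4 feeder cells, and picked as single clones whose Tet2 mRNA was measured by qPCR. The parental cells had no knockdown, and no group with a control hairpin or with the vector alone is among the samples, so the knockdown cannot be told apart from the vector, puromycin selection or cloning. The labels call the libraries of a group biological replicates, but they do not say how many clones the 4 Tet2kd libraries came from. The 4 Tet1 knockdown (Tet1kd) libraries, which complete the 12 of the series, enter below only where named.

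TET2 is a dioxygenase that uses iron and 2-oxoglutarate to oxidize 5-methylcytosine in DNA to 5-hydroxymethylcytosine, a step towards the removal of the methyl mark. In mouse embryonic stem cells it is expressed together with TET1, and both differ in structure: TET1 carries a CXXC domain that binds CpG-rich DNA, which TET2 lacks. DNA methylation is written by the DNMT enzymes and is mostly absent from CpG-rich promoters, while promoters with few CpG are more often methylated when inactive.

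Promoter windows of genes with large changes are shown first because TET enzymes act at CpG, and CpG content differed widely among them. The windows run from 250 bases before to 50 bases after the start of a RefSeq gene (GRCm38.p6), are written 5′ to 3′ on the strand of the gene, and have each CpG in capitals. Plac1 and Slc15a2 had the largest falls among genes with a parental mean of 10 to 100, Ifitm1 was among the largest rises of the class from 100 to 1000, and Lhx1 was among the largest rises of all. The 3 windows of Plac1, Slc15a2 and Ifitm1 held 6, 5 and 5 CpG, and that of Lhx1 held 31. That of Cyp26a1, another of the largest rises, is shown further below and held 26. These genes are examples, and among tested genes few CpG went with a low level, as given below. The median over all 32851 windows of the table was 7, but of the 10032 tested genes with a window only 1231 (12.3%) held 8 CpG or fewer. Plac1 has 2 windows in the table, and the one with more CpG is printed.
Plac1 (chrX:53114356-53114655, minus strand): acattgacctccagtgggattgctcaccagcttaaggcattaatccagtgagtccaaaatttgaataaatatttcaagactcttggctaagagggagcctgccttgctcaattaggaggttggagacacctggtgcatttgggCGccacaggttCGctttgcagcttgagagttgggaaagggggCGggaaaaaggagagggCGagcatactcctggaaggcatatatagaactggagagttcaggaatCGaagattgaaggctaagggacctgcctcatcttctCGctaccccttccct
Slc15a2 (chr16:36784913-36785212, minus strand): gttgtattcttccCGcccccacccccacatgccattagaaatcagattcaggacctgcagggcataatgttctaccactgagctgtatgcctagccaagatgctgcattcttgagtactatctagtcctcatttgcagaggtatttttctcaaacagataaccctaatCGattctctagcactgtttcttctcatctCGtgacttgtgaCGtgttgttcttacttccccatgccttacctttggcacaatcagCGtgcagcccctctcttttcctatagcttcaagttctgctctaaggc
Ifitm1 (chr7:140967826-140968125, plus strand): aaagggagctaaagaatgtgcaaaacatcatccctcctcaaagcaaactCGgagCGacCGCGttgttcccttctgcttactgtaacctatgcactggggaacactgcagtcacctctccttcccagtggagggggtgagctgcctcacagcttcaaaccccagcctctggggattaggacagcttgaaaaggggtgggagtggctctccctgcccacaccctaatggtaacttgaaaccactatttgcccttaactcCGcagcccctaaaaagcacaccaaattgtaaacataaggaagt
Lhx1 (chr11:84525485-84525784, minus strand): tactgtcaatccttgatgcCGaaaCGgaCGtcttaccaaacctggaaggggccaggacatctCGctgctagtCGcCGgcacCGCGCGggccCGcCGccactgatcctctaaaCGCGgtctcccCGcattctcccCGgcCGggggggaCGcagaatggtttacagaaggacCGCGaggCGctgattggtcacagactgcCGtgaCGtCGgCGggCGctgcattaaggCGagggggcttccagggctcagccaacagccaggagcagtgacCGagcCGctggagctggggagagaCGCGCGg

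The deposited table gives the mean of each group, and the reads of each library were recovered from these means for 14524 of the 14909 genes. The libraries are lettered a to d in the order of their size factors, since the tables do not say which numbered sample each one is. The parental libraries held an estimated 14700000 to 31400000 reads in genes and the Tet2kd libraries 14400000 to 31100000. In each group libraries a and b were deeper and c and d shallower, and deviations from the group mean correlated at 0.53 to 0.68 between libraries of the same depth set in different groups and at -0.64 to -0.51 between sets (9016 genes). Because deviations were taken from each group's own mean, the negative values follow from the positive ones. The division into deeper and shallower libraries is called the library batch below. It holds 2 libraries of each group on each side and was taken from the values. All 1552 called genes with recovered libraries changed in the same direction in both library sets, which were also the libraries in the test.

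Tet2 was lower in every Tet2kd library and no other TET gene was called. Normalized read counts of Tet2 were 8192, 7982, 7507 and 7668 in parental libraries a to d and 4069, 4247, 3835 and 3815 in Tet2kd libraries a to d. In the authors' deposited table it was at 50.9% of its parental mean (log2 fold change -0.97, adjusted p = 3.08e-30). Tet1 had means of 25007 and 29146 and a log2 fold change of 0.22 per the authors' deposited table, with adjusted p values of 0.104 in their first test and a value listed as 0 in their second. Tet3 was at 189, 180.1, 203 and 186 in the parental and 191, 198, 177 and 230.5 in the Tet2kd libraries, which overlapped (log2 fold change 0.07, adjusted p = 0.976 per the authors' deposited table). Markers of embryonic stem cells were present in both groups: the means of Pou5f1 were 13009 and 11819 and those of Nanog 15002 and 14206 per the authors' deposited table.

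**Figure D1:**
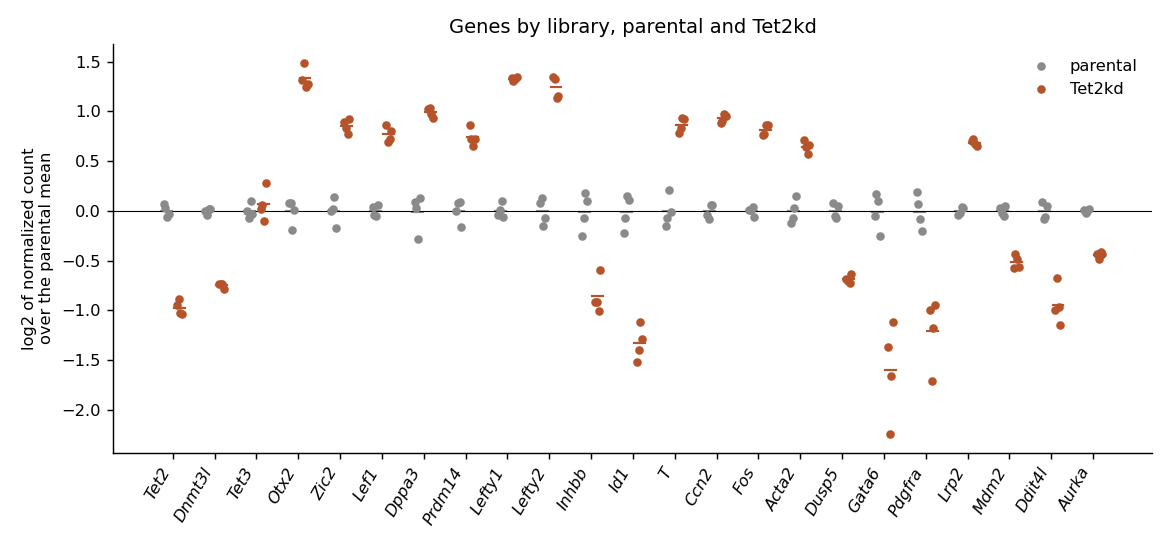
Each point is 1 library, drawn as the log2 of its normalized read count over the parental mean of the gene, with a short line at the mean of the 4 log2 values of a group. The Tet2kd points lie apart from the parental points for each gene shown except Tet3.

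In all, 1600 genes changed between Tet2kd and parental cells per the authors' deposited table (adjusted p under 0.05), 10.7% of those tested. Of these 866 (5.81%) were higher and 734 (4.92%) lower in Tet2kd cells. The changes were mostly small: 1069 of the 1600 were less than 1.5-fold, and 155 (1.04% of the tested genes) reached 2-fold, 85 of them higher and 70 lower. The median log2 fold change over all tested genes was 0.00 (quartiles -0.16 and 0.18). The groups did not overlap in 23.1% of the genes with recovered libraries. Genes named below for a small adjusted p were picked for their difference, so that separate groups in them are a description. The count depended on the test. The second deposited test, a generalized linear model, called 4046 genes (1955, or 13.1%, higher and 2091, or 14%, lower), and limma on the recovered libraries called 2641 (1350 and 1291). Counts of lists below by the second deposited test compare with that test's 13.1% and 14%, and not with 5.81% and 4.92%. With the library batch as a term, limma called 5272 (2588 and 2684). Of the 1600 genes 1596 were also called by the second deposited test, and of the 1552 with recovered libraries 1542 were called by limma and all 1552 with the batch term.

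The direction of the calls went with the level of the gene in parental cells, which also enters the fold. Normalized counts scale with transcript length, so these classes order genes by reads and not by molecules. Among 3966 genes with a parental mean of 10 to 100, 148 rose and 84 fell, and 107 of these 232 changed at least 2-fold. Among 5922 genes from 100 to 1000, 460 (7.77%) rose and 288 (4.86%) fell. The balance turned for the 4549 genes from 1000 to 10000, of which 229 (5.03%) rose and 346 (7.61%) fell, and for the 273 genes over 10000, of which 9 rose and 16 fell. The median log2 fold change moved from 0.05 and 0.03 in the 2 lower of these classes to -0.04 and -0.04 in the 2 upper ones. Classed by the mean of both groups instead, 127 rose and 95 fell from 10 to 100, 467 and 293 from 100 to 1000, 259 and 332 from 1000 to 10000, and 13 and 14 over 10000, so that the imbalance was smaller in the lowest class and nearly absent in the highest. The 199 genes with a parental mean under 10 entered only because their Tet2kd mean was high enough, so that all 20 calls there were rises by construction. The size a call needed also fell with the level: the smallest called log2 change was 0.49 in size from 10 to 100 and 0.23 from 1000 to 10000.

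**Figure D2:**
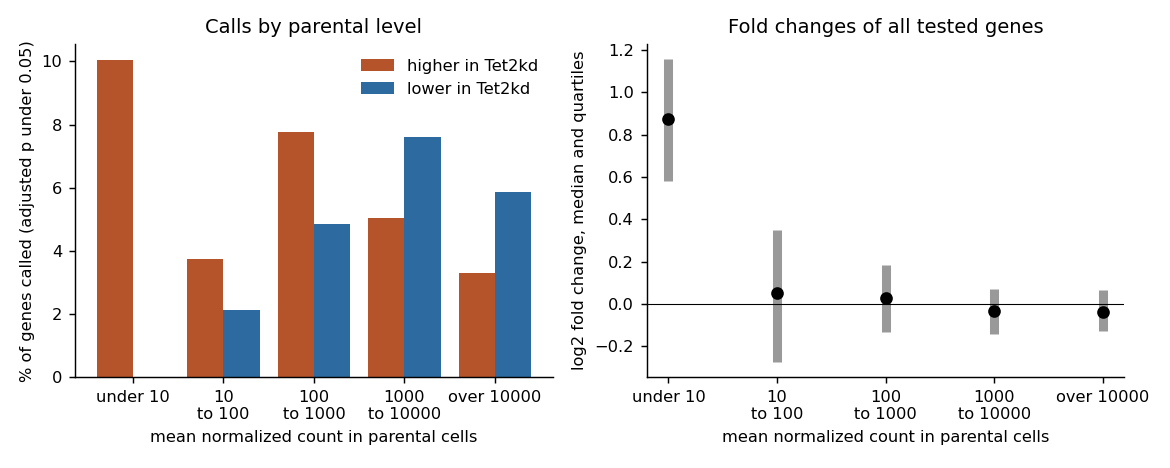
The left panel gives the percentage of genes called higher (orange-brown) and lower (blue) in Tet2kd by the class of parental mean normalized count, and the right panel the median (point) and quartiles (bar) of the log2 fold change of all tested genes in each class. Rises outnumbered falls in the class from 100 to 1000 (7.77% against 4.86%), and falls outnumbered rises from 1000 to 10000 (7.61% against 5.03%).

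The largest changes of each class were in genes of differing roles. Cyp26a1, which breaks down retinoic acid, was at 3.32, 9.36, 7.81 and 4.26 in the parental and 39.9, 48.9, 55.8 and 45.8 in the Tet2kd libraries. Lhx1, a homeobox factor of the gastrulating embryo, was at 4.65, 2.88, 10.4 and 1.42 and 39.2, 27.8, 25.9 and 45.8. Both passed the minimum mean only through the Tet2kd group, with 27 and 20 reads in all parental libraries, so that their difference is a description. Eya2, a phosphatase and transcriptional coactivator, was at 11.3, 18.7, 9.11 and 9.93 in parental and 58.5, 33.7, 54.5 and 70.1 in Tet2kd libraries (log2 fold change 2.14 per the authors' deposited table, adjusted p = 1.1e-05). Plac1, an X-linked gene of the placenta, nearly disappeared: it was at 25.3, 37.5, 22.1 and 15.6 in the parental libraries and 0, 1.69, 1.36 and 0 in the Tet2kd libraries. Its 3 reads in all Tet2kd libraries against 118 in the parental ones gave a ratio of 2.69% (95% interval 0.547% to 8.06%, exact binomial, for counting error only). Slc15a2, a peptide transporter, went from 31.3, 43.9, 32.5 and 19.9 to 1.99, 0, 0 and 4.29, or 4.32% (1.56% to 9.63%) of the parental reads by the same measure. Among genes over 10000 no change reached 2-fold. There the kinase Sgk1 (log2 fold change 0.62), the metallothionein Mt2 (0.48) and fibronectin, Fn1 (0.41), rose most per the authors' deposited table, and the adaptor Gab1 (-0.55), Myadm (-0.52) and the chaperone Hspa5 (-0.34) fell most.

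Among DNA methylation genes 2 were lower beside Tet2. Of 11 tested TET and DNMT enzymes and partners 3 fell, Tet2, Dnmt3l and Dnmt3a, 27.3% against 4.92% of all genes. This share includes Tet2, the target of the hairpin, whose fall was set by the design. None rose by the first deposited test, while the second called 2 higher and limma 1. Dnmt3l, a cofactor of the de novo methyltransferases without activity of its own, was at 5167, 5024, 5227 and 5205 in the parental and 3097, 3106, 3108 and 2993 in the Tet2kd libraries (log2 fold change -0.75 per the authors' deposited table, adjusted p = 1.24e-16). The groups did not overlap. Dnmt3a, a de novo methyltransferase, was at 2593, 2629, 2687 and 2681 and 2043, 2196, 2286 and 2371, a smaller fall with a log2 fold change of -0.25 per the authors' deposited table (adjusted p = 0.0229). Base excision repair genes, which remove the oxidized products of TET action, had 1 fall (Fen1, -0.30) and no rise among 22 by the first test, and 3 rises and 3 falls by the second. None of the 20 enzymes that supply or use 2-oxoglutarate in metabolism was called by the first deposited test, and the second called 5 higher and 3 lower.

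Of 33 Polycomb genes, whose products deposit or read repressive histone marks, 1 rose and 2 fell (3.03% and 6.06%), shares near those over all genes (5.81% and 4.92%), and the second deposited test called 6 higher and 6 lower. Cbx8, a reader subunit, was at 44.6, 34.6, 31.2 and 32.6 in the parental and 5.98, 10.1, 12.3 and 8.59 in the Tet2kd libraries (log2 fold change -1.95 per the authors' deposited table, adjusted p = 2.62e-05). Jarid2, which recruits the PRC2 complex, had a log2 fold change of -0.34 and Phc1, a PRC1 subunit, one of 0.26 per the authors' deposited table. No MLL or SET1 complex gene of 15 was called by the first test (the second called 2 higher and 4 lower), and 1 rose and 1 fell of 26 SWI/SNF and NuRD genes (second test: 5 and 8). Of 323 zinc finger genes named Zfp, 29 (8.98%) fell and 12 (3.72%) rose, against 4.92% and 5.81% of all genes, with a median log2 fold change of -0.07 against 0.00. Of 47 imprinted genes, expressed from 1 parental allele, 4 rose and 5 fell (8.51% and 10.6%). Peg3 was at 2134, 2135, 2026 and 2049 in the parental and 3094, 3207, 2983 and 3023 in the Tet2kd libraries, while Grb10, an adaptor that limits insulin signalling, was at 6619.6, 6745, 6758 and 6564 and 4521, 4497, 4222 and 4326. Neither gene overlapped between groups, and they moved in opposite directions (log2 fold changes 0.56 and -0.60 per the authors' deposited table).

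Genes of the formative and primed epiblast, the state that follows the naive embryonic stem cell state in the embryo, rose more often than they fell. Of 16 tested members 7 rose and 2 fell, 43.8% and 12.5% against 5.81% and 4.92% of all genes, and their median log2 fold change was 0.14. Otx2, a homeobox factor of the primed epiblast, was at 229, 229.8, 190.0 and 219 in the parental and 538, 609, 513 and 525 in the Tet2kd libraries (log2 fold change 1.33 per the authors' deposited table, adjusted p = 5.65e-25). Zic2, a zinc finger factor, was at 896, 911, 985 and 795 and 1667, 1602, 1529 and 1701, and Lef1, a Wnt effector, at 291, 274, 272 and 294 and 514, 456, 466 and 492. These 3 are the members with the smallest adjusted p, and their groups lie apart. Zic5, Dusp6, Cldn6 and Fgf5 rose too, and Dnmt3a and Etv4 fell (Fgf5 and Etv4 named after their values were seen). The 4 Tet2kd libraries overlapped the parental ones in Fgf5 and Etv4. Etv5 had a log2 fold change of -0.03 per the authors' deposited table (adjusted p = 1).

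Naive pluripotency genes that were called by the first test were all higher. Of 31 tested 5 rose, 16.1% against 5.81% of all genes, with a median log2 fold change of 0.14 (second deposited test: 19 higher and 6 lower). Dppa3, a maternal and germ cell factor that protects against methylation changes, was at 515, 496, 398 and 531 in the parental and 983, 991, 953 and 923 in the Tet2kd libraries (log2 fold change 0.99 per the authors' deposited table, adjusted p = 3.31e-19). Prdm14, a regulator of naive pluripotency and of germ cell fate, was at 433, 457, 461 and 387 and 791, 714, 682 and 716, and Tfap2c at 1170.3, 1221, 1319.6 and 1184 and 1770.5, 1741, 1986 and 1872. The groups lay apart for each of these. Of the core pluripotency factors Sox2 rose by 0.28 (adjusted p = 0.00802) and Dnmt3l fell, while Pou5f1 and Nanog had log2 fold changes of -0.14 and -0.08 (adjusted p = 0.465 and 0.92) per the authors' deposited table. Both LIF receptor chains, Lifr and Il6st, rose, by 0.29 and 0.28 on the log2 scale per the authors' deposited table, among 18 LIF and STAT3 genes of which the first test called no other and the second called 7 higher and 1 lower in all. Of 45 germline and meiosis genes 9 rose and 2 fell, 20% and 4.44% against 5.81% and 4.92% of all genes, so that the share of falls was near that of all genes. The 2 that fell were Piwil2, a PIWI protein, at 845, 816, 873 and 911 and 584, 554, 574 and 568, and Stra8, which starts meiosis on retinoic acid, at 156, 162, 168 and 159 and 82.4, 74.1, 81.7 and 77.3.

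**Figure D3:**
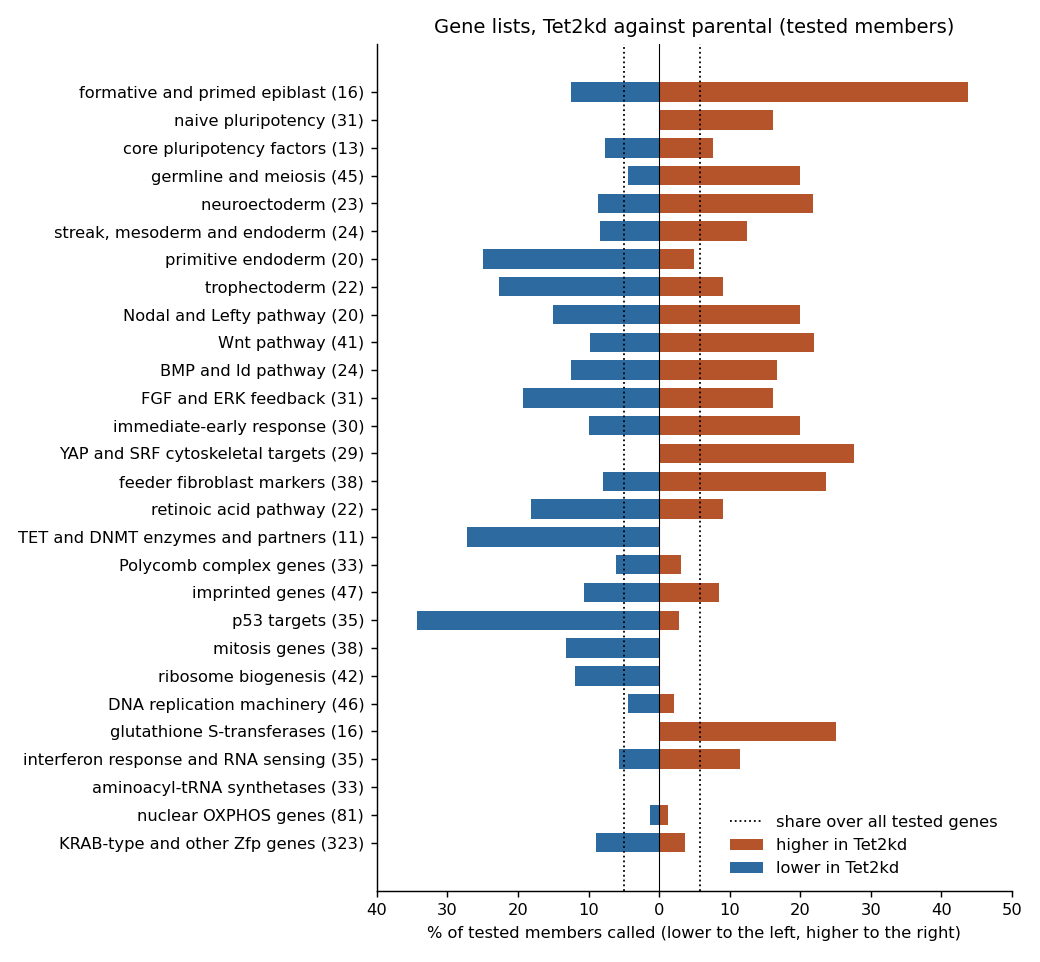
Bars give the percentage of the tested members of each gene list called higher (orange-brown, to the right) or lower (blue, to the left) in Tet2kd, with the number of tested members in parentheses and dotted lines at 5.81% and 4.92%, the shares over all tested genes. Lists of 11 to 30 members move by several points with each gene. The TET and DNMT list includes Tet2, the target of the hairpin. The formative and primed list (43.8% higher) and the p53 target list (34.3% lower) extend furthest among the lists of 10 or more members.

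Nodal and its inhibitors Lefty1 and Lefty2, TGF-beta family proteins that set the state of the epiblast, form a feedback loop in which the inhibitors are induced by the signal. Of 20 tested genes of the pathway 4 rose and 3 fell, 20% and 15.0% against 5.81% and 4.92% of all genes. Lefty1 was at 803, 832, 886 and 795 in the parental and 2094, 2049, 2075 and 2104 in the Tet2kd libraries, and Lefty2 at 1814, 1884, 1552 and 1636 and 4372, 4304, 3787 and 3835. They had adjusted p values of 3.51e-45 and 5.79e-39 per the authors' deposited table and log2 fold changes of 1.33 and 1.24. The inhibitory Smad7 rose as well (log2 fold change 0.28 per the authors' deposited table; chosen after its value was seen). Inhbb, the activin B subunit, was at 378, 426, 509 and 481 and 238, 238, 223 and 298 and fell, as did the convertase Pcsk6 (-0.41) and Smad2 (-0.30, chosen after its value was seen) per the authors' deposited table. The coreceptor Tdgf1 had a log2 fold change of -0.16 there (adjusted p = 0.28).

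In the BMP pathway 4 genes rose and 3 fell of 24 tested, 16.7% and 12.5% against 5.81% and 4.92% of all genes. The ligand Bmp4 was at 1078, 1001, 1032 and 1030.3 in the parental and 743, 650.4, 609.9 and 703 in the Tet2kd libraries. Id1, a direct target of the pathway and an inhibitor of bHLH factors, was at 699, 775, 903 and 874 and 284, 309, 374 and 334, with no overlap (log2 fold change -1.32 per the authors' deposited table, adjusted p = 6.86e-19). The antagonist Grem1 (0.61), Id4 (0.69) and, named after its value was seen, the pseudoreceptor Bambi (0.53) rose per the authors' deposited table. The receptor Bmpr1a had a log2 fold change of -0.22 (adjusted p = 0.125).

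Of 41 Wnt pathway genes 9 rose and 4 fell, 21.95% and 9.76% against 5.81% and 4.92% of all genes. The targets T (brachyury) and Sp5 and the effectors Lef1 and Tcf7l1 rose, while the target Cdx1 fell. Cdx1, a caudal homeobox factor, was at 532, 558, 642 and 650.0 in the parental and 307, 298, 373 and 362 in the Tet2kd libraries. The log2 fold changes per the authors' deposited table were 0.87 for T, 0.87 for Sp5, 0.44 for Tcf7l1 and -0.83 for Cdx1. Ctnnb1, which encodes beta-catenin, had one of -0.03 (adjusted p = 1). Notch and Hedgehog genes had 5 rises (among them the Hedgehog receptor and target Ptch1, 0.36, and Gli1, 0.29) and 1 fall (Hes1, -0.31) of 27 (18.5% and 3.70%) per the authors' deposited table.

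Of 31 FGF and ERK genes 5 rose and 6 fell, 16.1% and 19.4% against 5.81% and 4.92% of all genes. The feedback inhibitors Dusp5, a nuclear ERK phosphatase, and Spry4 fell, from 1986, 1819, 1788 and 1941 to 1169, 1153, 1142 and 1212 and from 8616, 8849.6, 9069 and 8879.6 to 6258, 6151, 6057 and 6284. Egr1, an ERK-responsive zinc finger factor, rose from 3889, 3875, 3528 and 3598 to 6301, 5922, 5923 and 6157. Each of the 3 lay apart between groups, with log2 fold changes of -0.69, -0.52 and 0.71 per the authors' deposited table. Spry2 had one of -0.08 (adjusted p = 0.894). Of 30 immediate-early genes, which respond to growth factors within minutes, 6 rose and 3 fell (20% and 10.0%). The lists share members: Ccn1 and Ccn2, 2 of these rises, are also counted among the YAP and SRF targets below. Egr1, which rose, and Myc, which fell, are also on the FGF and ERK list. Fos was at 1915, 1914, 1959 and 1824 in the parental and 3222, 3249.6, 3451 and 3449.9 in the Tet2kd libraries, and Fosb at 1164, 1261, 1175 and 1145 and 1995, 1959, 1847 and 1861. Both groups were tight in both genes, and the lowest Tet2kd library was above the highest parental one.

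Targets of the coactivator YAP and of the transcription factor SRF, which respond to the actin cytoskeleton, rose without exception among those called: 8 of 29 rose and none fell, 27.6% against 5.81% of all genes, with a median log2 fold change of 0.15. The second deposited test called 12 higher and 3 lower. Ccn2, a matricellular protein and YAP target, was at 3149.9, 3077, 3387 and 3392 in the parental and 6008, 6079, 6387 and 6306 in the Tet2kd libraries (log2 fold change 0.93 per the authors' deposited table, adjusted p = 1.39e-27). Acta2, smooth muscle actin, was at 799, 826, 890.1 and 966 and 1420.3, 1355, 1291 and 1374, and Tagln, an actin-binding protein, at 815, 848, 902 and 919.6 and 1361, 1229, 1267 and 1419. Ccn1 rose by 0.64 on the log2 scale, and Thbs1, Tpm1, Myl9 and Cnn1, named after their values were seen, rose by 0.40, 0.38, 0.56 and 0.61 per the authors' deposited table. Actb and Flna had log2 fold changes of -0.03 and 0.09 there (adjusted p = 1 and 0.715). Acta2 and Tagln are also fibroblast genes, and outside the feeder marker list 6 of 27 rose. That list does not hold all genes of fibroblasts, so this count does not test the part of feeder cells.

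Markers of fibroblasts moved beside these genes. Of 38 tested feeder fibroblast markers 9 rose and 3 fell, 23.7% and 7.89% against 5.81% and 4.92% of all genes, with a median log2 fold change of 0.19. Their summed normalized count over 36 recovered genes ranged from 21123 to 23280 in the parental and from 24174 to 26457 in the Tet2kd libraries. Of the 7 defining markers none was at 0 in either group. Col1a1 was at 1364, 1500.5, 1563 and 1568 and 2099, 1906, 2125 and 2290.4 and Col1a2 rose too (log2 fold change 0.39 per the authors' deposited table), whereas Col3a1 fell, from 575, 545, 529.6 and 563 to 386, 393, 385 and 334. Dcn, Thy1, Postn and Pdgfrb had log2 fold changes of -0.21, 0.06, 0.08 and -0.20 per the authors' deposited table and were not called. The part of feeder cells in the changes of matrix and cytoskeletal genes was not tested. In such bulk RNA fewer cells of a type and less RNA per cell cannot be told apart.

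Within the promoter windows the CArG box, the SRF-binding pattern of CC, any 6 of A or T, and GG, which reads the same on both strands, was found in 7 of the 23 YAP and SRF genes with a window and in 1.56% of the 10032 tested genes with one. It was in 1 of the 5 genes of this list that rose and had a window, Myl9, and in 6 of the 18 that were not called. Of the 157 tested genes with the box 14 rose and 12 fell (8.92% and 7.64%), against 6.05% and 4.98% of those without it. Myl9, a myosin light chain, and Cnn2, a calponin with a log2 fold change of 0.13 (adjusted p = 0.626 per the authors' deposited table), are shown with the box in capitals, which begins 161 and 56 bases before the start. A gene that was called and one that was not thus carried the same kind of box.
Myl9 (chr2:156775214-156775513, plus strand): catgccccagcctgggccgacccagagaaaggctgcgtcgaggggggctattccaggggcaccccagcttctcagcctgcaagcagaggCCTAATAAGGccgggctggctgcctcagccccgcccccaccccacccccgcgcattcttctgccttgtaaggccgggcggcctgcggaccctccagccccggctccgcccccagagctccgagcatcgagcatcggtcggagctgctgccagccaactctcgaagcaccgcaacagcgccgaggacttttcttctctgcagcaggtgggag
Cnn2 (chr10:79988350-79988649, plus strand): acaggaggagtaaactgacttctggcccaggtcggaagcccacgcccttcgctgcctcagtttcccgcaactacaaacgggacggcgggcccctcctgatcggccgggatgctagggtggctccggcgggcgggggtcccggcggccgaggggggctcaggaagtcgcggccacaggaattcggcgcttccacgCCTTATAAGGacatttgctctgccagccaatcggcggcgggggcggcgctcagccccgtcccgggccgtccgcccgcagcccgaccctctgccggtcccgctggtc

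Primitive endoderm, the extraembryonic layer that can arise from embryonic stem cells, had 5 falls and 1 rise among 20 genes, 25% and 5.00% against 4.92% and 5.81% of all genes (second deposited test: 7 falls and 4 rises). Its master regulator Gata6 was at 108, 125, 119.7 and 93.7 in the parental and 43.2, 23.6, 35.4 and 51.5 in the Tet2kd libraries. Pdgfra, a growth factor receptor of the lineage, was at 119, 110.2, 98.9 and 90.8 and 52.5, 32.0, 46.3 and 54.4, and Cubn, an endocytic receptor, at 73.1, 72.8, 48.1 and 53.9 and 23.3, 28.6, 20.4 and 24.3. The log2 fold changes per the authors' deposited table were -1.54, -1.18 and -1.36, and these 3 are the called members with the smallest adjusted p. Lrp2, the partner receptor of cubilin, went the other way, from 488, 493, 517 and 512 to 815, 827, 802 and 790.2. Gata4 and Sox17 had log2 fold changes of -0.35 and -0.78 per the authors' deposited table (adjusted p = 0.398 and 0.29; Sox17 named after its value was seen). Pdgfra is also in the feeder list. Of 22 trophectoderm genes 5 fell, Plac1, Bmp4, Sfn, Krt19 and Eomes, and 2 rose, Tfap2c and Rhox9, 22.7% and 9.09% (Eomes named after its value was seen). Neuroectoderm genes had 5 rises and 2 falls of 23 (21.7% and 8.70%), with Zic2, the RNA-binding protein Msi1 (0.75) and Map2 (0.59) higher per the authors' deposited table. The falls were Lhx2 and Stmn2, named after their values were seen. The median log2 fold change of the list was 0.04, with 12 of the 23 above 0. Vim and Tubb3 had log2 fold changes of -0.10 and -0.23 per the authors' deposited table (adjusted p = 0.852 and 0.159). Hox genes, of which 10 were tested, had no call by the first deposited test and 1, a rise, by the second.

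In the retinoic acid pathway 2 genes rose and 4 fell of 22, 9.09% and 18.2% against 5.81% and 4.92% of all genes. Beside Cyp26a1 the carrier Crabp2 rose (0.72), and Stra8 (-1.03), Cdx1 (-0.83), the receptor Rarg (-0.41) and Stra6 (-1.29) fell per the authors' deposited table. Crabp2 and Stra6 were named after their values were seen. In Stra6, a retinol transporter, the Tet2kd libraries were at 3.32, 5.06, 21.8 and 5.73 and library c lay within the parental range of 26.6, 23.1, 20.8 and 17.0. The Cyp26a1 window is shown because it holds a retinoic acid response element (2 copies of AGTTCA with any 5 bases between them, here on the opposite strand and thus read as copies of TGAACT, in capitals), beginning 32 bases before the start. The search used exactly these letters, and other forms of the element were not searched, so its frequency among promoters is not known from this. This pattern was in 8 of the 32851 windows (0.0244%). Blvrb was the other tested gene among them, with a log2 fold change of 0.58 (adjusted p = 0.104 per the authors' deposited table).
Cyp26a1 (chr19:37697558-37697857, plus strand): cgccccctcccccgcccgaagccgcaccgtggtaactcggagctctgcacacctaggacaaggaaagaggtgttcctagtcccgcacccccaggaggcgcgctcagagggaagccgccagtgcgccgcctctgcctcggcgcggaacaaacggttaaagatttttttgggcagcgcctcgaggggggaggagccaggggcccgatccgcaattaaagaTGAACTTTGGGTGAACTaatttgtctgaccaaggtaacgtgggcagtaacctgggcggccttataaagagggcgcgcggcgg

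Targets of p53, the tumour suppressor that responds to DNA damage, fell more often than they rose. Of 35 tested 12 fell and 1 rose, 34.3% and 2.86% against 4.92% and 5.81% of all genes, and the median log2 fold change was -0.12. The second deposited test called 16 lower and 5 higher, where it called 14% of all genes lower and 13.1% higher. Mdm2, the ubiquitin ligase that degrades p53, was at 7332, 7087, 6923 and 7448 in the parental and 4842, 5325, 5146 and 4881 in the Tet2kd libraries (log2 fold change -0.51 per the authors' deposited table, adjusted p = 2.14e-08). Ddit4l, an inhibitor of mTOR signalling, was at 419.6, 372, 379 and 409 and 199, 247, 201 and 179. The death receptor Tnfrsf10b was at 796, 846, 856 and 844 and 506, 569.5, 523 and 481, and Perp, a membrane protein of apoptosis and adhesion, at 1352, 1229.7, 1120.5 and 1267 and 873, 932, 783 and 772. These 4 are the called targets with the smallest adjusted p, and their groups lie apart. Pmaip1 (Noxa), Sesn2, Phlda3, Plk2, Polk, Gtse1, Cd80 and Sfn fell too, all but Sfn named after their values were seen, and, likewise named, Rrm2b, a ribonucleotide reductase subunit, rose (0.59 per the authors' deposited table). Trp53 itself had a log2 fold change of -0.08 there (adjusted p = 0.752). None of the tested p53 targets lay on chromosome 8 or in the stretch of chromosome 13 described below.

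Mitosis and ribosome biogenesis genes that the first deposited test called were all lower. Of 38 mitosis genes 5 fell and none rose, with a median log2 fold change of -0.14, and of 42 ribosome biogenesis genes 5 fell and none rose, with a median of -0.15. These are 13.2% and 11.9% against 4.92% of all genes. The second deposited test called 22 and 23 lower and 2 and 1 higher, where it called 14% of all genes lower and 13.1% higher. Of the members 34 and 40 had parental means over 1000, a level at which 7.51% of all genes fell and 4.94% rose by the first test. The shares of the second test at that level were not computed. Aurka, a mitotic kinase, was at 4778, 4695, 4751 and 4817 in the parental and 3535, 3393, 3584 and 3532 in the Tet2kd libraries. Nip7, which processes ribosomal RNA and lies on chromosome 8, was at 3171, 3018, 3088 and 3284 and 2364, 2327, 2385 and 2525. Of 46 replication genes 1 rose and 2 fell (2.17% and 4.35%), and none of 33 aminoacyl-tRNA synthetases was called by the first test (the second called 1 higher and 7 lower). Ribosomal protein genes, 69 tested, had 5 falls and 1 rise; copies of these genes share reads with pseudogenes, so single members are uncertain. Rpl39l, a tissue-specific paralogue of Rpl39, was at 461, 485, 458 and 444 and 227, 169, 144 and 239. Of the MYC family Mycl and Mycn rose (0.70 and 0.38) and Myc fell (-0.29) per the authors' deposited table.

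Among metabolic and stress genes, glutathione S-transferases, which detoxify electrophiles, had 4 rises and no fall of 16 tested, 25% against 5.81% of all genes, and a median log2 fold change of 0.34. Gstm1 was at 776, 734, 601 and 556 in the parental and 1291, 1359, 1044 and 899 in the Tet2kd libraries, with the shallower libraries low in both groups. Gsta4, Gstt1 and Gstt2 were the others (0.33, 0.60 and 0.76 per the authors' deposited table). These are multigene families with similar members, so reads may be divided among copies. Ldhb, the lactate dehydrogenase subunit of oxidative tissue, was at 1533, 1382, 1307 and 1385 and 2942, 2924, 2784 and 2721, while of 45 glycolysis and hypoxia genes 2 rose and 4 fell (4.44% and 8.89%). Nuclear OXPHOS genes, which encode respiratory chain subunits, had 1 rise and 1 fall of 81, and 8 and 7 by the second deposited test.

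Of 35 interferon genes 4 rose and 2 fell, 11.4% and 5.71% against 5.81% and 4.92% of all genes. Of the rises 3 were neighbouring members of 1 family of membrane proteins that restrict virus entry, Ifitm1, Ifitm2 and Ifitm3, the last 2 with log2 fold changes of 0.51 and 0.45 per the authors' deposited table. Ifitm1 was at 719, 860.1, 748 and 634 in the parental and 1881, 1911, 1782 and 1716 in the Tet2kd libraries. The antiviral sensor Ddx58 had a log2 fold change of -0.12 per the authors' deposited table (adjusted p = 0.565). Rnf213, a large ubiquitin ligase, was at 1148, 1149.7, 1006 and 1245 and 2264, 2392, 2363 and 2310.4. Of 245 solute carriers 21 rose and 18 fell (8.57% and 7.35%). The lysosomal transporter Slc46a3 was at 41.9, 43.9, 37.7 and 22.7 and 107, 144, 121 and 136.

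Promoter CpG content went with how often genes changed by much. Of 376 tested genes whose richest window held 0 to 3 CpG 15 (3.99%) changed at least 2-fold, and of 3788 with 26 or more 20 (0.528%) did, with 2.34%, 1.16% and 0.740% in the classes between. The median means of these genes rose along the same order from 43.2 to 835 normalized counts, so CpG content and level were not separate. The share called at any fold was 12.8%, 11.5%, 9.43%, 11.3% and 11.4% from the class with fewest CpG to that with most. Among genes with a parental mean of 100 to 1000 this share was 24.7% (22 of 89) with 0 to 3 CpG and 13.9% with 4 to 8. It was 8.94% with 9 to 15, 12.4% with 16 to 25 and 13.03% with 26 or more. The share changed at least 2-fold was not computed within that level. Of 82 long intergenic RNAs 6 (7.32%) rose and none fell, and of 928 processed pseudogenes 9 (0.970%) rose and 47 (5.06%) fell, against 5.81% and 4.92% of all genes.

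Position on chromosomes also went with the calls. Gene order and chromosomes were taken from a GRCm38 annotation by gene identifier, since the files were made on mm9. On chromosome 13 a stretch of 36 consecutive tested genes from Cplx2 to Ddx46 was mostly raised: 24 were called higher and none lower. The median log2 fold change of the 36 was 0.57, a median fold of 1.49 (quartiles of the log2 values 0.40 and 0.70). It was found after the values were seen, as the run of genes whose running median over 21 genes exceeded 0.3. The 20 tested genes before it had a median of 0.03 with no call, and the 20 after it a median of 0.00 with 3 rises. Its median was 0.58 in the deeper and 0.56 in the shallower libraries. In the Tet1kd table, which shares the parental libraries, the same genes had a median of 0.09. Zfp346 in this stretch was at 1131, 1070.5, 1080.1 and 1203 in the parental and 1714, 1667, 1823 and 1774 in the Tet2kd libraries. Tspan17 (log2 fold change 1.28) and Nsd1, a histone H3K36 methyltransferase (0.82), lay there too per the authors' deposited table, as did the MYC network gene Mxd3 (0.50). Tspan17 and Nsd1 were named after their values were seen. The other runs past this limit were 2 lowered runs of 3 genes each in the histone cluster of chromosome 13.

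On chromosome 8, 82 of 739 tested genes (11.1%) fell and 25 (3.38%) rose, and the median log2 fold change was -0.10. The other autosomes and the X chromosome had medians from -0.06 (chromosome 14) to 0.04 (chromosome 17) and shares of falls from 2.42% to 7.31%. In the 6 consecutive sixths of chromosome 8 the medians were -0.08, -0.11, 0.03, -0.11, -0.15 and -0.15, so that 5 of the 6 were below 0. The Tet1kd table had a median of -0.09 for chromosome 8 genes against the same parental libraries. On the Y chromosome all 3 tested genes, Uty, Ddx3y and Eif2s3y, were nearly lost. Uty was at 516, 459.6, 436 and 434 in the parental and 3.99, 16.9, 9.53 and 4.29 in the Tet2kd libraries, and Ddx3y at 616, 588, 465 and 529 and 36.5, 53.1, 25.9 and 32.9. Their median log2 fold change was -5.19, and -4.77 in the Tet1kd table, which shares the parental libraries. The part of these chromosomes in the changes of other genes was not tested. With the genes of the chromosome 13 stretch and the Y chromosome taken out of the count, 1573 of the 1600 calls remained. Of the 155 that changed at least 2-fold 150 remained. Chromosome 8 was not taken out, so its 82 falls and 25 rises are among the 1573. The genes that remained were not tested again.

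**Figure D4:**
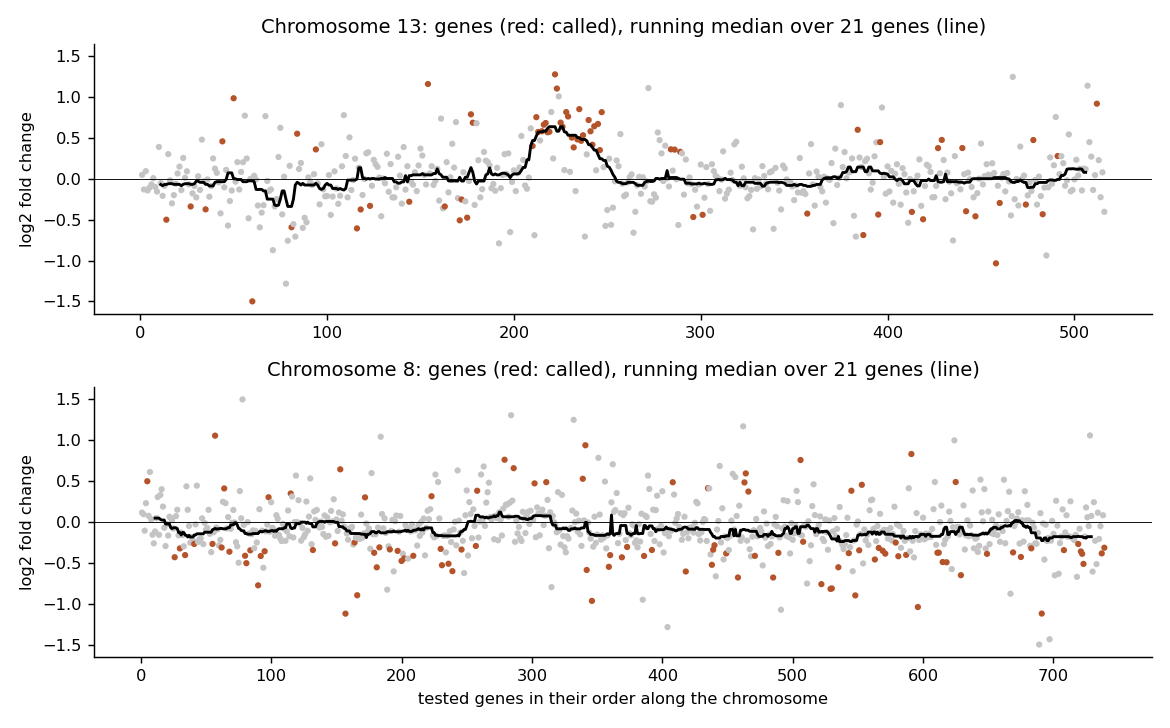
Points are tested genes of chromosomes 13 (top) and 8 (bottom) in their order along the chromosome, drawn at their log2 fold change (values beyond 1.5 are drawn at 1.5, coloured where called), and the line is the running median over 21 genes. On chromosome 13 the line exceeds 0.3 over the stretch from Cplx2 to Ddx46, and on chromosome 8 it lies below 0 over most of the chromosome, whose median is -0.10.

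**Figure D5:**
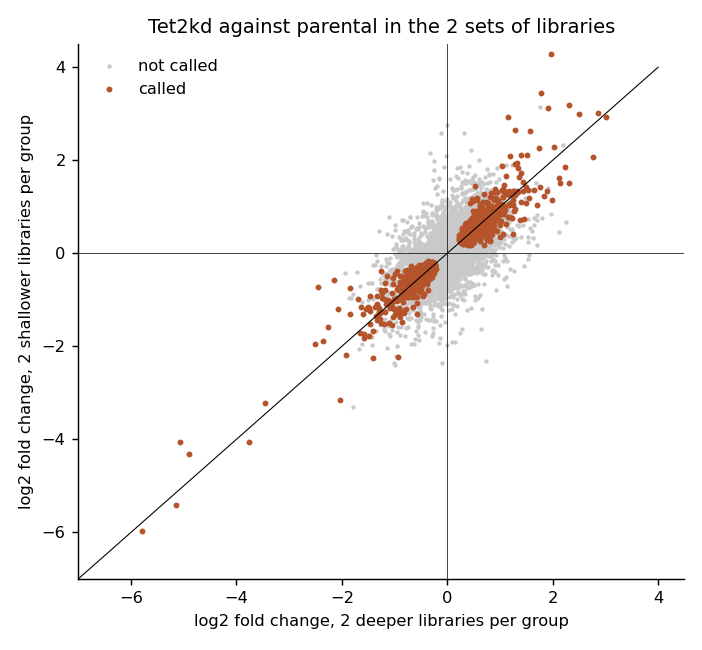
Each point is 1 of the 14524 tested genes with recovered libraries, placed by its log2 fold change in the 2 deeper libraries per group (x axis) and in the 2 shallower ones (y axis), coloured where called. All 1552 called genes have the same sign on both axes, while some genes that were not called differ in sign between the library sets.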

How the data were processed

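The submitters' processing notes name TopHat2 (2.0.0), SAMtools (0.1.18) and DESeq, and the builds mm9 and NCBIM37. The authors deposited, per the file headers, a mean signal (normalized count) of each group, its ratio (fold, Tet2kd over parental), the log2 value, and p-values with adjusted p-values of 2 tests. Recomputing the adjustment by Benjamini-Hochberg over the 22949 rows with reads gave the deposited values. A gene was called at an adjusted p under 0.05 in the first test. The members and gene lists (76) were chosen with earlier results of these data known. Genes named were Tet1, Tet2 and Tet3, in each list up to 4 called members with the smallest adjusted p and up to 2 not called with the highest mean, and in each class of level the 3 called genes with the largest fold in each direction; other names were chosen after their values were seen, and some genes are not reported here.

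Reads per library were recovered as the only whole numbers that, divided by 4 size factors, gave the deposited mean. Each library had to lie within 60% of that mean, a limit that was widened at low means for counting noise. Where several sets were found the limit was 20% (874 genes, whose spread leans small). Of 21895 parental genes solved with the Tet1kd and Tet2kd tables together, recovery from 1 table alone answered 20557. Only where several sets were found could its answer differ from the joint one: 3151 matched and 1 did not. The Tet2kd libraries had no second table for such a check. Normalized counts per library were then tested with limma (3.58.1, R 4.3.3; log2 with a pseudocount of 0.5, Benjamini-Hochberg) as an alternative. On simulated data it called 100 of 100 genes changed 2-fold, 93 of 100 changed 1.5-fold and 11 of 14324 unchanged. The simulation gave all genes 1 dispersion, had no library batch, and placed changed genes only at means of at least 50. The real libraries differ in these points, so the shares do not carry over to them. Tests with edgeR or DESeq2 were not run on the recovered reads. Rows that join overlapping genes (905, of which 632 were tested) stayed in the counts and out of the lists. Symbols matched 14409 of 14909 genes, chromosomes 14512. Strand was not stated, so overlapping antisense genes cannot be told apart. Promoter windows (RefSeq, GRCm38.p6) matched 10032 tested genes by symbol. For a gene with several windows the one with most CpG was used. The exon tables were not analysed here.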

Additional observations from a re-analysis of the deposited data

Results flagged for a closer look

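Among the 118 groups of 4 libraries behind the genes printed by library, 3 held a library far from the other 3, where chance flags about 1 in 20. The Tet2kd library d of Dnmt3l was at 2993, against 3097 to 3108 in the others. The Tet2kd library d of Col3a1 was at 333.5, against 385 to 393. The parental library c of Myl9 was at 376, against 288 to 295. Each of these libraries remained on its group's side of the other group.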

How the results depend on the processing

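The number of changed genes, 1600, was 4046 with the second deposited test, 2641 with limma, 2655 with limma and a pseudocount of 2, 5272 with limma and the library batch as a term, 3054 with limma on the deeper libraries and 2564 on the shallower ones. Leaving out each library in turn, limma called 1904 to 2337 genes, of which 161 to 188 changed at least 2-fold. The 155 genes changed at least 2-fold were 53 with a minimum mean of 50 and 261 with limma and the library batch as a term. The batch term, the library sets and the removal of chromosome stretches were chosen after seeing the data. No paired analysis was possible because the columns of the tables are group means that carry no replicate numbers.

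Of the 210 called genes named by the rule, 209 kept their call with the second deposited test, and all 193 with recovered libraries kept it with limma and with the batch term. The exception was Rbl2 (log2 fold change -0.38, adjusted p = 0.0631 in the second deposited test). The rule took called genes with small adjusted p or large folds, and these other tests call more genes from the same libraries. The kept calls are thus a description. Of 138 named genes that were not called, 67 were called by the second deposited test. Taken relative to the median of all genes, a log2 shift of only 0.0047, no list median changed sign. In the deeper and shallower libraries 8 and 4 of 75 did. With a minimum mean of 50 the sign changed in 3 of 75, and the largest shift was 0.71. Genes over 10000 were mostly not recovered in both groups (2.20%). Tet2kd libraries were not recovered for means above 10000, so their spread there is unknown. Parental libraries were recovered for some of these genes, such as Pou5f1 (11438.5 to 14137.5).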
